A study of Mus musculus with 3 samples.

Results

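The mitosis genes described here are 40 genes whose products drive a cell into and through mitosis: the cyclin-CDK1 axis, the mitotic kinases, the spindle checkpoint, the anaphase machinery, the kinetochore and passenger complex, the mitotic kinesins, the spindle assembly factors, the cytokinesis proteins and 3 markers of the dividing chromosome. The choice names the genes and uses no measured value, although earlier results of these data were known when it was made, and all 40 were found among the 20471 genes of the count table. The cells were wild-type mouse embryonic fibroblasts (MEF) in 96-well plates, profiled well by well with Drug-seq2, in which each well is barcoded during reverse transcription and the wells are then pooled. Screening wells on 3 plates received the medium CFAE+8 and a single compound of a purchased library, and were lysed after 4 days. Almost every compound had a single well. On plate 3, 30 wells carried no compound name and were read as media wells: bC8FAE (5 wells), bC6FAE[2] (3), bC6FAE[10] (4), bCLFAE (4), bCSFAE (4), bCFAE (3), basal (3) and MEF (4). The labels do not explain the letters of these names, and they give no compound doses. The MEF wells share the name of the cells, and the labels do not say what these wells received. They are called MEF medium below. No well is named as a vehicle control, so a compound was read against the other screening wells of its own plate, with the 5 bC8FAE wells counted among them on plate 3. Nothing says that wells came from separate cultures or animals, and p-values therefore measure the spread between wells.

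Cells enter mitosis when cyclin B binds CDK1 and the pair becomes active, helped by the polo-like kinase Plk1 and the Aurora kinases. The spindle checkpoint then holds chromosome separation until every kinetochore is attached, after which Cdc20 directs the anaphase-promoting complex, with its ubiquitin-conjugating enzyme Ube2c, against securin (Pttg1) and the B-type cyclins. The transcripts of most of these genes accumulate in G2 and mitosis and are low in resting cells. Many of the promoters carry a CHR element and CCAAT boxes. The MuvB complex acts through the CHR, with p130 and E2F4 in resting cells, or with B-Myb and Foxm1 in dividing cells.

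The elements can be read in the promoters themselves. Both strands were searched. A CHR was spelled TTTGAA in its usual form, or TTCGAA with a central CpG pair. The CCAAT box was searched by its own letters. An E2F site was spelled TTCCCGC as the form listed first, TTCGCGC as the form listed next, TTGCCGC as a further form, and TTGGCGC as the last form searched. RefSeq promoter windows (GRCm38.p6) were found for 34 of the 40 genes. The sequences below are shown because each holds both a CHR and a CCAAT box within 150 bases before the start and touches no annotated exon, which was true of 4 of the 34. Capitals mark the CHR and CCAAT matches, 5′ to 3′ on the strand of the gene. On the opposite strand a CHR of the first form reads TTCAAA from left to right, and a CCAAT box, likewise reversed, reads ATTGG there.
Top2a, chr11:99024190-99024339, minus strand: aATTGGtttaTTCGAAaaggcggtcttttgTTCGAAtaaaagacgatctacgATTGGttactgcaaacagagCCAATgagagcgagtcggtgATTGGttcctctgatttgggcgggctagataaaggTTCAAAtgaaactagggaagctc
Mki67, chr7:135716380-135716529, minus strand: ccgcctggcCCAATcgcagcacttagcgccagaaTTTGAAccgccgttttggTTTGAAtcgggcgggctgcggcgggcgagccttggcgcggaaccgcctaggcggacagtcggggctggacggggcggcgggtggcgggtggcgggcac
Ckap2, chr8:22185820-22185969, minus strand: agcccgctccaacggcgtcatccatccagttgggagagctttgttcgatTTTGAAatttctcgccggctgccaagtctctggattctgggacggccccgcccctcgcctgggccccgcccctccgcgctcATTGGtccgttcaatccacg
Kif11, chr19:37376232-37376381, plus strand: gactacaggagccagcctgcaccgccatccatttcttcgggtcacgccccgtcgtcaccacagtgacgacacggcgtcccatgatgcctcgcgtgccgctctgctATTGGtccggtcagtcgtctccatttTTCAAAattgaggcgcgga
Top2a, the topoisomerase that untangles sister chromatids, had CHR matches beginning 140, 120 and 23 bases before its start and 4 CCAAT matches. Mki67, which coats the surface of mitotic chromosomes, had CHR matches at 116 and 98 bases before the start, a single CCAAT match, and an E2F match at 67 bases before the start that is left in lower case. Ckap2, a spindle-associated protein, and Kif11, the kinesin that pushes spindle poles apart, had 1 match of each kind.

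In the 250 bases before the start, CCAAT was present for 26 of the 34 mitosis genes (76.5%). The share over all 27025 genes with a window was 37.5%. A gene with several windows counted as holding a match if any of them did. A CHR match was present for 14 (41.2%), against 19.6% of all genes, and an E2F match for 6 (17.6%), against 9.01%. Many CHR matches lay just after the annotated start. A window from 100 bases before to 50 after it was chosen after the positions had been seen. There a CHR was present for 24 of 34 genes (70.6%), against 9.87% of all genes. Over the whole window of 250 bases before to 50 after, CHR and CCAAT occurred together in 23 of 34 (67.6%), against 8.61%. A match is a run of letters and not a measured binding site.

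**Figure D1:**
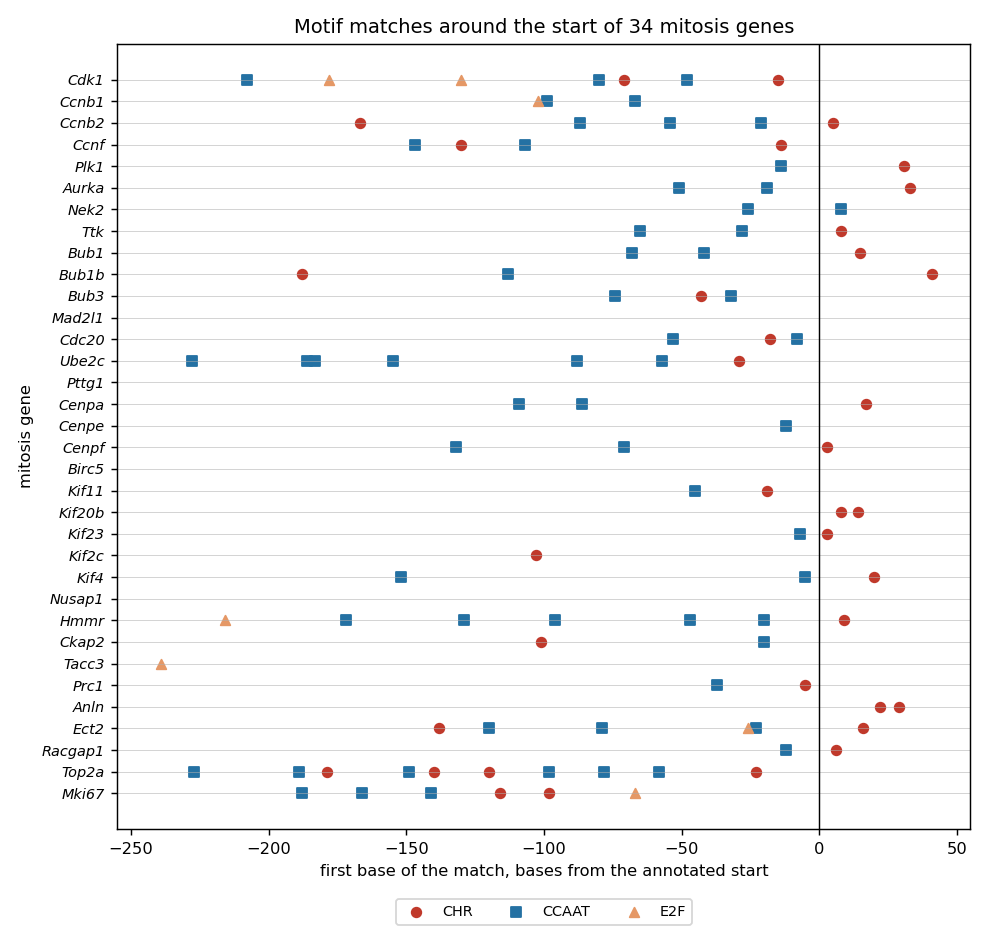
Positions of CHR, CCAAT and E2F matches (first base, in bases from the RefSeq start) in the windows of 34 mitosis genes, ordered by role. CCAAT squares lie mostly before the start, and CHR circles cluster around it, within 100 bases before to 50 after in 24 of the 34 genes.

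Levels are given as CPM, the counts of a gene scaled to a common total of gene counts in every well. They were not divided by transcript length, so they compare wells and not genes. Over the 30 media wells the mitosis genes took 22977 counts, and 32 of the 40 averaged at least 10 CPM. Cenpa, Bub3, Ube2c, Cdc20, Plk1 and Top2a together held 45.5% of those counts, so the summed level follows them most. Kif20b and Nek2 were at the edge of detection, with 14 and 16 counts in all 30 wells. Well totals had a median of 318876, 611204 and 433274 counts on plates 1, 2 and 3, and 4 screening wells with under 10% of their plate median were left out. Both wells marked as holding no cells carried 4280 and 25308 counts, of which 3 and 10 were of mitosis genes. Fibroblast markers summed to between 3040 and 11272 CPM in the wells used. Medians were 31.1 to 44.0 CPM for epithelial and 74.3 to 85.8 CPM for macrophage markers. Single wells reached up to 878 CPM for epithelial markers (plate 1) and 670 CPM for macrophage markers (plate 2). A lower level in a well can be fewer dividing cells or less RNA of these genes per cell, and these cannot be told apart.

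Between media the mean summed level ran from 1555 to 1833 CPM. It averaged 1712 ± 150 CPM in bC8FAE (SD, n = 5), 1555 ± 78.9 in bC6FAE[2] (n = 3), 1679 ± 118 in bC6FAE[10] (n = 4), 1708 ± 87.2 in bCLFAE (n = 4), 1594 ± 87.6 in bCSFAE (n = 4), 1833 ± 52.6 in bCFAE (n = 3), 1753 ± 48.8 in basal (n = 3) and 1694 ± 185 CPM in MEF medium (n = 4). The bC6FAE[2] and bCSFAE wells reached at most 1604 and 1686 CPM and lay below the lowest bCFAE well, at 1780 CPM, while the other pairs compared below overlapped. No test was made of the sum. Single genes did change, and they were tested with edgeR's quasi-likelihood test over all 30 wells and 6985 genes, with Benjamini-Hochberg adjustment and a threshold of 0.05 on the adjusted p. Of the 40 mitosis genes 28 passed the count filter.

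**Figure D2:**
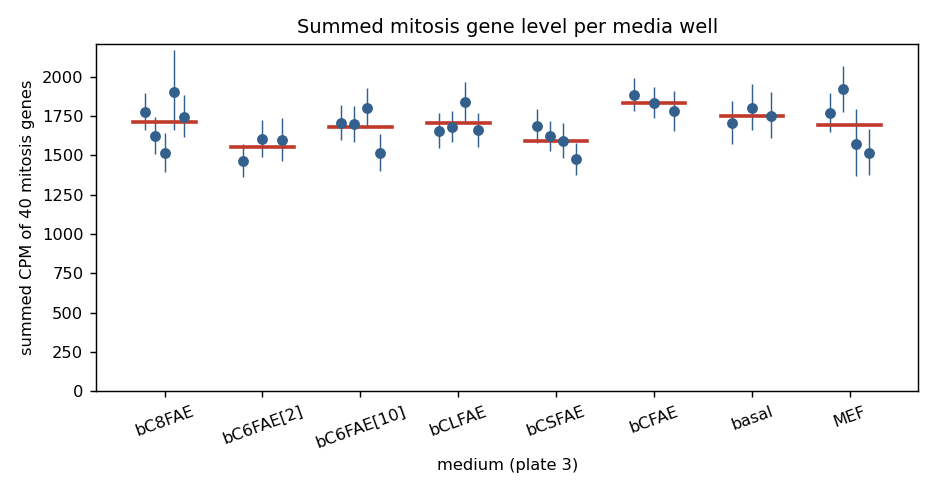
Summed CPM of the 40 mitosis genes in each of the 30 media wells of plate 3 (points, with 95% exact Poisson intervals that cover counting error) and the mean of each medium (red line). Means lie between 1555 CPM in bC6FAE[2] and 1833 CPM in bCFAE.

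No mitosis gene was called between basal and MEF medium, where 0.644% of all genes were called. 3 of the 28 had an unadjusted p under 0.05, and DESeq2 called 0 as well. Without the second MEF well 1 gene was called.

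Against basal medium, bCFAE had 3 mitosis genes called lower and 25 not called, while 34.5% of all 6985 genes were called in either direction and 17.9% were called lower. Cyclin B2 (Ccnb2), the Golgi-associated partner of CDK1, had 69.2, 56.5 and 60.5 CPM in bCFAE, against 93.02, 91.0 and 88.8 CPM in basal medium. The groups did not overlap, and the log2 fold change was -0.68 ± 0.21 (SE; adjusted p = 0.00826). Nusap1, a microtubule-bundling protein of the spindle, had 7.52, 5.51 and 9.31 CPM in bCFAE, against 25.4, 49.9 and 31.7 CPM in basal medium. Every bCFAE well lay below every basal well for Nusap1, with a log2 fold change of -2.40 ± 0.48 (adjusted p = 5.12e-05). Mki67, the proliferation marker, averaged 10.5 ± 3.54 CPM in bCFAE and 27.99 ± 12.5 CPM in basal medium (SD, n = 3 each), a log2 fold change of -1.59 ± 0.48 (adjusted p = 0.00759). Without a count filter Ccnb2 was not called. Without the second bCFAE well only Nusap1 was still called, and Mki67 also lost its call without the second basal well. The median log2 fold change over the 28 genes was 0.04, against 0.01 over all genes. The genes outside the 40 on a list of other mitosis genes had 6 of 25 called lower and 0 higher, among them Cenpm (-1.52), Spc24 (-1.39), Ckap2l (-1.04) and Knstrn (-1.03), all kinetochore or spindle proteins. Of 34 DNA replication genes 9 were called in either direction, all of them higher. Over all genes 34.5% were called in either direction, and only part of these were higher, since 17.9% of all genes were called lower. Those with the largest changes were Uhrf1 (1.45), Mcm2 (1.32), Cdt1 (1.21) and Mcm3 (1.16). The S-phase transcription factor E2f1 was higher by 1.18, cyclin D1 (Ccnd1) by 2.44 and the CDK inhibitor Cdkn1a by 0.99 on the log2 scale. In the same wells 8 of 11 fibroblast markers and 2 of 3 macrophage markers were called lower in bCFAE, and their part in these differences was not tested.

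Against MEF medium, bC8FAE had 3 mitosis genes called lower and 2 called higher, while 32.1% of all genes were called. The median of the 28 genes was -0.29, against 0.00 over all genes. Prc1, which bundles the microtubules of the central spindle, had 27.7, 26.1, 27.8, 33.5 and 12.8 CPM in bC8FAE, against 53.7, 73.9, 57.7 and 43.0 CPM in MEF medium. The groups did not overlap (log2 fold change -1.29 ± 0.28, adjusted p = 1.72e-04). Aurora kinase A (Aurka), which matures the spindle poles, had 39.5, 50.0, 58.2, 33.5 and 33.3 CPM in bC8FAE, against 26.8, 22.7, 21.6 and 10.8 CPM in MEF medium. It was higher in every bC8FAE well (0.98 ± 0.32, adjusted p = 0.0139). Cenpa, the histone H3 variant that marks centromeres, averaged 206 ± 30.3 CPM in bC8FAE (n = 5) and 127 ± 29.2 CPM in MEF medium (n = 4), and was higher by 0.59 ± 0.14 (adjusted p = 7.97e-04) although the groups overlapped. Cdc20 averaged 95.9 ± 23.5 CPM in bC8FAE and 140 ± 32.6 CPM in MEF medium (-0.73 ± 0.19, adjusted p = 0.00155), and its groups overlapped too. Ckap2 averaged 8.06 ± 5.08 CPM in bC8FAE and 23.9 ± 8.28 CPM in MEF medium (-1.32 ± 0.47, adjusted p = 0.0251). Without the shallow wells MEF 3 and bC8FAE 4 the count was 8, and without the fourth MEF well it was 3. Aurka lost its call without that MEF well or well 3 of bC8FAE, and Ckap2 without the fifth bC8FAE well. Of 34 replication genes 8 were called higher and 1 lower, where 32.1% of all genes were called in either direction. The mitotic transcription factor Foxm1 was higher by 1.04 (adjusted p = 0.0452).

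The other media were set against bCFAE, and all 5 of those comparisons share the 3 bCFAE wells. Cenpf, a kinetochore protein of G2 and mitosis, had 34.6, 19.3 and 32.6 CPM in those wells. In bC8FAE it had 5.93, 10.9, 10.1, 8.38 and 2.56 CPM, below every bCFAE well, with a log2 fold change of -1.85 ± 0.43 (adjusted p = 0.00171). In bCLFAE it had 11.6, 10.6, 6.77 and 7.35 CPM, again with no overlap (-1.56 ± 0.40, adjusted p = 0.00651). Against bCFAE, bC8FAE had 3 genes called where 11.2% of all genes were called, the others being Prc1 (-0.85 ± 0.27, adjusted p = 0.0311) and Cenpa (0.42 ± 0.13, adjusted p = 0.0285). Without the first or the second bCFAE well only Cenpf was still called there. Cenpa also lost its call without well 3 of bCFAE or wells 1 or 2 of bC8FAE, and Prc1 without the fifth bC8FAE well. Prc1 was not called by DESeq2 there, nor Cenpa without a count filter. bCLFAE had Cenpf alone where 6.44% of all genes were called, with 0 genes without the first bCFAE well and 2 without well 3 of bCFAE or wells 1 or 3 of bCLFAE. bC6FAE[2] had Ccnb2 alone, at 27.7, 37.7 and 36.8 CPM against 69.2, 56.5 and 60.5 CPM in bCFAE (-0.80 ± 0.25, adjusted p = 0.0294), where 8.52% of all genes were called. That call was lost in DESeq2, without a count filter, and when any of the 6 wells but the second bCFAE well was left out. bC6FAE[10] had 0 called (2 at an unadjusted p under 0.05) where 13.7% of all genes were called, and bCSFAE had 0 (7 at an unadjusted p under 0.05) where 6% were. Between bC6FAE[10] and bC6FAE[2] 0 mitosis genes were called, 2 had an unadjusted p under 0.05, and 0.401% of all genes were called. DESeq2 also called 0 in these last 3 comparisons.

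Across the compounds most wells lay close together. The summed level was within 0.25 of the plate median on the log2 scale for 160 of 211 compounds, more than 0.5 below it for 22 and more than 0.5 above it for 2. On plate 1 it ran from 496 to 2352 CPM with a median of 1353, on plate 2 from 354 to 2535 with a median of 1595, and on plate 3 from 481 to 2220 with a median of 1782. For 7 compounds present in 2 forms (salts, hydrates or the free compound), the 2 wells differed by a median of 0.0638 and at most 0.123 on the log2 scale. Each compound was then tested gene by gene with edgeR's quasi-likelihood test against all other screening wells of its plate. A lone well is assumed there to vary like the others. The filter kept 11, 22 and 21 of the 40 genes on plates 1, 2 and 3. At least 1 mitosis gene was called lower for 11 compounds and higher for 4, and none for 196.

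**Figure D3:**
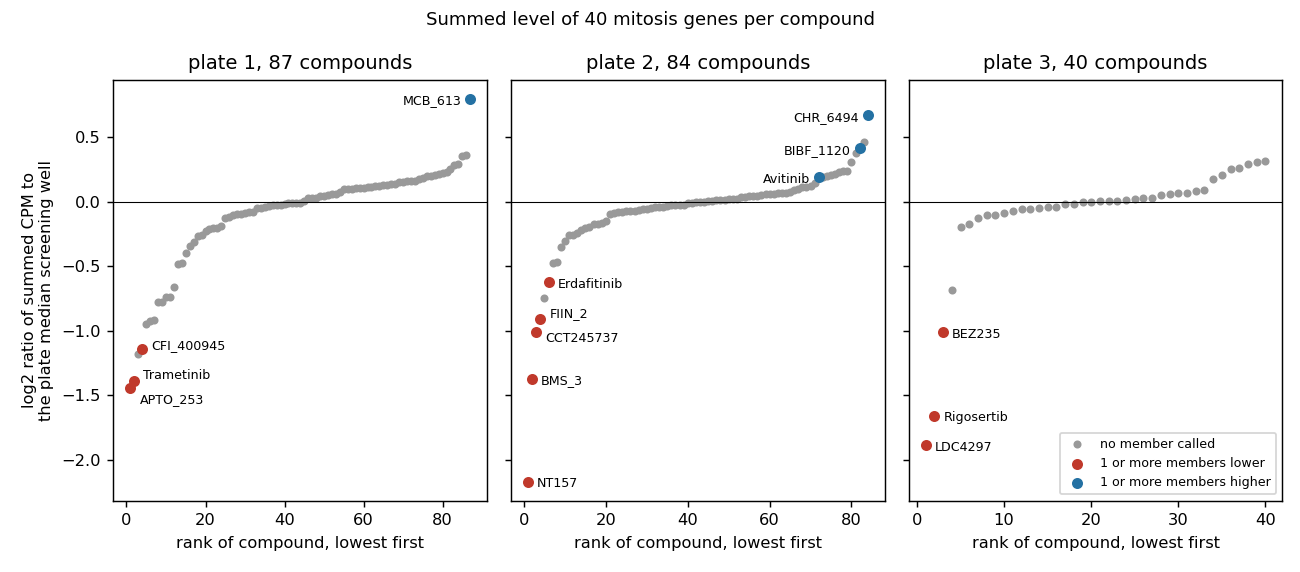
Log2 ratio of the summed CPM of the 40 mitosis genes to the median screening well of the plate, compounds ranked within each of 3 plates. NT157 lies lowest at -2.17, LDC4297 at -1.89 and MCB_613 highest at 0.80, and red and blue points had 1 or more genes called lower or higher.

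LDC4297, described as an inhibitor of CDK7, the kinase that activates CDK1 and phosphorylates RNA polymerase II, had the most mitosis genes called lower on plate 3. 20 of the 21 tested were called, while 15.4% of all 4485 genes were called lower, and the summed level was 481 CPM (95% exact Poisson interval 422 to 546) against a plate median of 1782. Plk1 had 7.99 CPM in the LDC4297 well, against 18.9 to 159 CPM with a median of 109 in the other wells (log2 fold change -3.84 ± 0.70, adjusted p = 8.95e-05). Cenpa had 16.0 CPM in LDC4297, against a median of 192 CPM (-3.70 ± 0.77, adjusted p = 4.10e-04), and Top2a 9.99 CPM, against a median of 98.0 CPM (-3.40 ± 0.66, adjusted p = 1.63e-04). All 3 lay below the lowest of the other wells. Ccnb2 had 0 counts, at least 8.62-fold lower than the reference when 3 counts are taken as the floor of the well. Cdk1 had 3 counts, a ratio of 0.0966 (0.0199 to 0.283, counting interval). Bub3, a checkpoint protein that also acts outside mitosis, was the one tested gene not called, at 164 CPM in LDC4297 against a median of 158 CPM. Cenpf was too low on the plate to be tested, and had 39.9 CPM (20 counts) in LDC4297, against 2.23 to 39.8 CPM with a median of 15.4 in the other wells. Of other mitosis genes 8 of 11 were called lower, and of replication genes 18 of 23. In the same well 7 of 10 fibroblast markers were called lower, among them Col3a1 (-3.60) and Thy1 (-2.32), and the p53-inducible gene Perp was higher by 2.84.

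NT157, described as an inhibitor of IGF1R signalling through insulin receptor substrates, had 19 of 22 tested genes called lower on plate 2, while 18.2% of all 5307 genes were called lower. Its summed level was the lowest of the screen, 354 CPM (305 to 409) against a plate median of 1595. Ccnb1, Kif4, Prc1 and Fam64a, the last a chromatin-associated mitotic protein now named Pimreg, had 0 counts. They were at least 6.20, 4.60, 3.73 and 11.2-fold lower at a floor of 3 counts. Ube2c had 5.78 CPM in NT157, against 53.2 to 345 CPM with a median of 136 in the other wells, a ratio of 0.0433 (0.00892 to 0.127, counting interval). Cenpa had 5.78 CPM, against a median of 176 CPM, a ratio of 0.0340 (0.00700 to 0.0993). Both lay below every other well of the plate. Bub3 (0.24 ± 0.20, adjusted p = 0.336), Pttg1 (-1.14 ± 0.52, adjusted p = 0.0696) and Tpx2 (-0.89 ± 0.45, adjusted p = 0.103) were not called. Foxm1 (-3.45) and E2f1 (-1.06) were lower, and 18 of 31 replication genes were lower and 1 higher. The p53 targets Perp (2.39) and Mdm2 (1.26) were higher. Cdkn1a, also a p53 target, had 1381 CPM in NT157, against a plate median of 1821 CPM. Both macrophage markers tested were higher, Lyz2 by 3.85 and Cd68 by 2.15, and the part of such changes in the result was not tested.

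BMS_3, described as an inhibitor of the actin-regulating LIM kinases, had 11 of 22 genes called lower where 3.11% of all genes were called lower, and a summed level of 615 CPM (557 to 678). Cenpa had 21.3 CPM in BMS_3, against a median of 176 CPM (-3.11 ± 0.76, adjusted p = 0.0111). Cdc20 had 19.8 CPM, against a median of 85.3 CPM (-2.19 ± 0.59, adjusted p = 0.0187). Plk1 had 28.9 CPM, against a median of 98.7 CPM (-1.85 ± 0.50, adjusted p = 0.0187). Cenpa, Cdc20 and Plk1 were lower still in NT157, which is among those other wells. Among the 19 p53 targets listed, Mdm2 (1.15), Perp (1.43) and Ei24 (0.89) were higher in the BMS_3 well. Cdkn1a had 3147 CPM there, against a plate median of 1821 CPM. The LIMK inhibitors as a class, 3 compounds, had 0 of 22 called (6 at an unadjusted p under 0.05, and 0 in DESeq2), with 0.0377% of all genes called, and 1 called without BMS_5.

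The other compounds with genes called lower had fewer. APTO_253, known for inducing the transcription factor KLF4, had 5 of 11 called where 5.49% of all genes were called lower, and 496 CPM in sum: Cdc20, Ube2c, Cenpa, Racgap1 and Top2a. Cenpa had 20.0 CPM there, against a median of 150 CPM (-2.83 ± 0.94, adjusted p = 0.0391). Trametinib, an inhibitor of MEK, had 4 of 11 called where 8.37% of all genes were, and 517 CPM in sum: Plk1, Cdc20, Ube2c and Fam64a. Ube2c had 24.1 CPM there, against a median of 91.8 CPM (-1.93 ± 0.68, adjusted p = 0.0356). CFI_400945, an inhibitor of the centriole kinase PLK4, had 3 of 11 called where 0.668% of all genes were: Ccna2, Cenpa and Fam64a. With either of its 2 wells left out it had 0 called. Rigosertib, described as acting on polo-like kinase and tubulin, had 3 of 21 called (Aurkb, Cdc20 and Cenpa) where 0.156% of all genes were, and 565 CPM in sum. There 16 of 21 had an unadjusted p under 0.05, and 12 were called once wells with other cell cycle kinase inhibitors were left out of the reference. BEZ235, which inhibits PI3K and mTOR, had Plk1 and Kif4 called of 21, where 8.65% of all genes were. CCT245737 had Top2a called of 22, Erdafitinib had Ccnf and FIIN_2 had Cenpa, where 0.396%, 5.92% and 6.46% of all genes were called lower. The CCT245737 call was lost with a lower count filter, and once wells with cell cycle kinase inhibitors were left out of the reference.

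**Figure D4:**
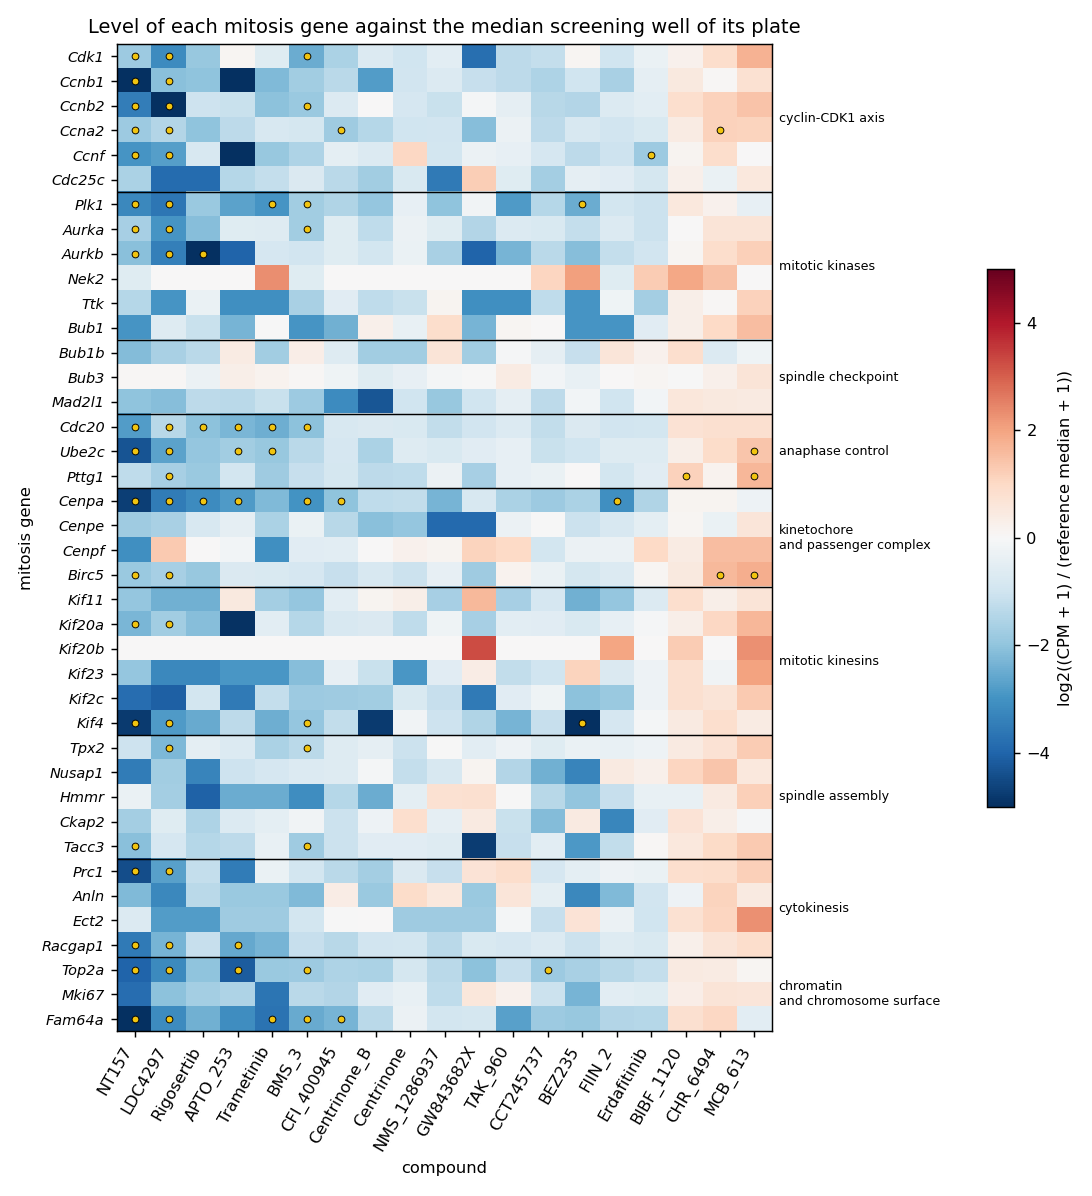
Log2 ratio of each mitosis gene, as (CPM + 1) over (median CPM + 1) of the reference wells, in 19 named compounds, genes grouped by role. Yellow points mark genes called in the test of that compound (Centrinone, Centrinone_B, NMS_1286937, GW843682X and TAK_960 had none), and the spindle checkpoint gene Bub3 stays near white from NT157 to MCB_613 while most other rows turn blue on the left.

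The roles did not move equally within a well. In LDC4297 the 3 chromosome genes Top2a, Mki67 and Fam64a summed to 11.1% of their plate median. The mitotic kinases, which here include the checkpoint kinases Bub1 and Ttk, stood at 9.03% and the cyclin-CDK1 axis at 15.2%. The spindle checkpoint group, which here is Bub3, Mad2l1 and Bub1b, stood at 93.01%. In NT157 the chromosome genes stood at 2.41%, the cytokinesis genes at 7.003% and the checkpoint genes at 93.9%. In BMS_3 the chromosome genes stood at 22.8% and the checkpoint genes at 95.9%. Of the 85 checkpoint counts in LDC4297, 82 were of Bub3. The other genes of the checkpoint group, Mad2l1 and Bub1b, were too low to be tested on these plates. Mad2l1 had 3.99 CPM in LDC4297 against a median of 20.8 CPM. No test was made of the difference between roles.

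Higher levels were fewer and smaller. MCB_613, described as a stimulator of steroid receptor coactivators, had 3 of 11 genes called higher where 6.92% of all genes were called higher, and a summed level of 2352 CPM (2222 to 2488) against a plate median of 1353. Birc5 (survivin), of the passenger complex, had 220 CPM in MCB_613, against 0 to 136 CPM with a median of 61.6 in the other wells (1.75 ± 0.33, adjusted p = 3.69e-04). Pttg1 had 180 CPM in MCB_613, against a median of 56.7 CPM (1.54 ± 0.37, adjusted p = 0.00569). Ube2c had 236 CPM, against a median of 90.7 CPM (1.33 ± 0.35, adjusted p = 0.0116). All 3 lay above every other well of plate 1. The table holds this well as a pair of identical columns, which were counted once. CHR_6494, an inhibitor of the histone kinase haspin, had the highest sum of plate 2, 2535 CPM (2406 to 2670) against a plate median of 1595. Its calls were Birc5, at 205 CPM against a median of 65.9 CPM (1.67 ± 0.33, adjusted p = 0.00138), and Ccna2, at 126 CPM against a median of 56.7 CPM (1.23 ± 0.31, adjusted p = 0.0172), of 22 tested, where 1.15% of all genes were called higher. 35 of the 40 genes lay above their plate median in that well and 4 below. BIBF_1120 and Avitinib had Pttg1 alone, where 0.622% and 3.15% of all genes were called higher, and the Avitinib well held only 92437 counts. Both lost the call with a lower count filter, and BIBF_1120 also once cell cycle kinase inhibitors were left out of the reference.

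Compounds were next grouped by the main target that general knowledge gives them, and 24 classes were tested with edgeR against the other screening wells, plate included. Mitosis genes were called in 2 of the 24. PLK4, the kinase that licenses centriole duplication, was the target of CFI_400945 (2 wells), Centrinone and Centrinone_B on plate 1. There 10 of 11 genes were called lower where 4.24% of all genes were called lower, with a median log2 fold change of -1.24 over the 11 and -0.02 over all genes. Ccna2, the cyclin of S phase and G2, had 8.69 and 15.8 CPM in the CFI_400945 wells, 20.3 in Centrinone and 14.8 in Centrinone_B, against a plate median of 41.0 CPM (-1.57 ± 0.33, adjusted p = 0.00108). Cenpa had 41.3 and 31.6 CPM in CFI_400945, 63.9 in Centrinone and 61.7 in Centrinone_B, against a plate median of 150 CPM (-1.57 ± 0.36, adjusted p = 0.00271). Top2a had 28.3, 21.1, 40.7 and 24.7 CPM in the same order of wells, against a plate median of 75.6 CPM (-1.40 ± 0.38, adjusted p = 0.0147). All 4 wells were below the plate median for these 3 genes. Fam64a (-1.37), Racgap1 (-1.30), Plk1 (-1.24), Pttg1 (-1.21), Birc5 (-1.18), Ube2c (-0.99) and Bub3 (-0.44) were also called, and Cdc20 was not (-0.82 ± 0.28, adjusted p = 0.0524).

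The PLK4 count rests on its compounds unequally, and its p-values count the 2 wells of CFI_400945 as separate replicates. With Centrinone left out 9 genes were called, with Centrinone_B left out 4, and with CFI_400945 left out 0, although Ccna2 still had a log2 fold change between -1.73 and -1.34 in those fits. In sum the wells stood at 612.8 and 613.2 CPM for CFI_400945, 597 (524 to 677) for Centrinone_B and 813 (721 to 914) for Centrinone, against a plate median of 1353. The related compounds Centrinone_B and Centrinone had 1 well each, and their difference was not tested. Of other mitosis genes 4 of 6 were called lower (Ncaph, Cdca8, Incenp and Cdca3, by -1.68 to -1.12), and of replication genes 10 of 18, led by Chaf1b (-1.43) and Tk1 (-1.32). Cdkn1a was higher by 0.44 (adjusted p = 0.0422) and Mdm2 by 0.76 (adjusted p = 0.0431), the 2 called of 11 p53 targets.

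The PLK1 inhibitors, on the same plate, split. NMS_1286937, GW843682X and TAK_960, which act on the kinase domain, summed to 713 (611 to 828), 787.6 (634 to 967) and 855 (771 to 944) CPM, against the plate median of 1353. Poloxin and Poloxime, which target the polo-box domain, summed to 1322 (1187 to 1468) and 1535 (1370 to 1714) CPM. As a class the 5 compounds had 0 of 11 genes called, with 3 at an unadjusted p under 0.05, 0 in DESeq2 and a median of -0.48, where 0.0872% of all genes were called lower. The log2 fold change of Fam64a was -0.90 with an interval of -1.69 to -0.11, and that of Plk1 itself was -0.71 (-1.40 to -0.02). Whether PLK4 and PLK1 inhibitors differ was not tested.

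**Figure D5:**
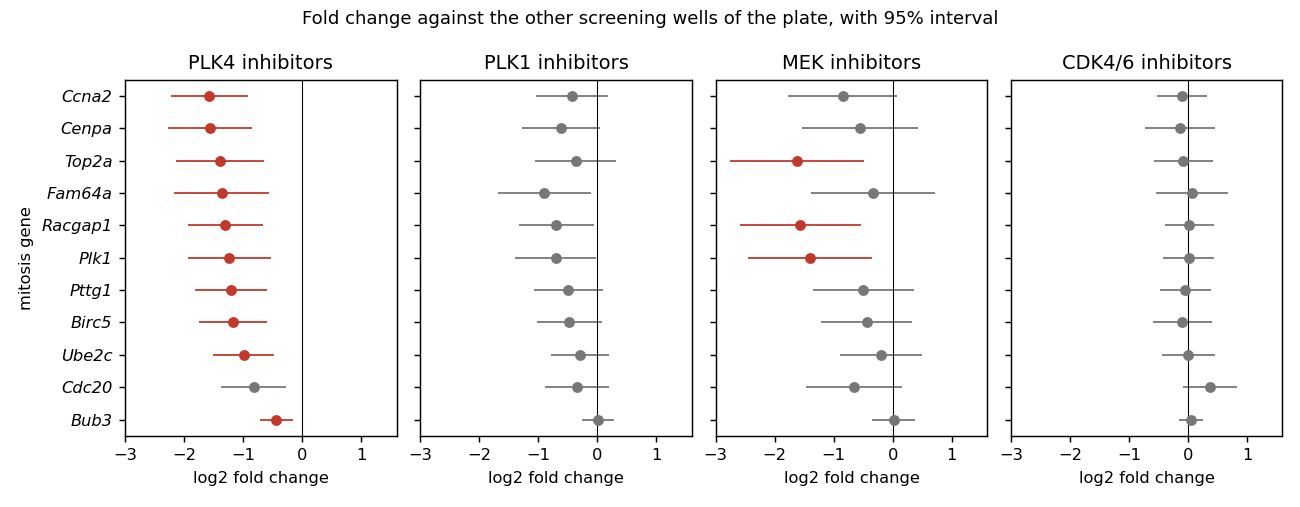
Log2 fold change (point, with 95% interval) of the 11 mitosis genes tested on plate 1, for PLK4, PLK1, MEK and CDK4/6 inhibitors against the other screening wells, with red for genes called. For PLK4 all points lie left of 0, from Ccna2 at -1.57 to Bub3 at -0.44, while CDK4/6 inhibitors (plate 2) lie around 0.

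The MEK inhibitors had 3 of 11 genes called lower where 11.7% of all genes were called lower: Top2a (-1.62 ± 0.57, adjusted p = 0.0270), Racgap1 (-1.57 ± 0.52, adjusted p = 0.0169) and Plk1 (-1.40 ± 0.53, adjusted p = 0.0399). Top2a had 20.0 CPM in Trametinib, 27.1 in GDC_0623 and 22.0 in Ro_5126766, against a plate median of 75.6 CPM, but the Ro_5126766 value is 1 count in a well of 45416. With Trametinib left out 0 genes were called, with GDC_0623 left out 1, and with Ro_5126766 left out 2. In sum Trametinib stood at 517 CPM, GDC_0623 at 1091 CPM and Ro_5126766 at 1409 CPM (1085 to 1800), against the plate median of 1353.

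Inhibitors of cyclin-dependent kinases were also tested by class. CDK4/6 inhibitors (LEE011 in 2 forms, Palbociclib and ON123300) stood between 1394 and 1668 CPM in sum, against a plate median of 1595, and had 0 of 22 genes called (1 at an unadjusted p under 0.05, and 0 in DESeq2), where 0% of all genes were called. The median log2 fold change was -0.01, and the 95% intervals of single genes reached from -0.97 to 1.19. Among inhibitors of CDK1, CDK2, CDK7 or CDK9, LDC4297 stood at 481 CPM and the others between 1347 and 2203. THZ1, which also targets CDK7, stood at 1710 CPM (1605 to 1821). That class had 0 of 25 called (1 at an unadjusted p under 0.05, and 0 in DESeq2) where 1.6% of all genes were called, and 1 without CDK9_IN_1. Of the FGFR inhibitors, FIIN_2 and Erdafitinib stood at 850 and 1034 CPM and SU_5402 at 1872 CPM. The class had 0 of 22 called (3 at an unadjusted p under 0.05, and 0 in DESeq2) where 15% of all genes were called, and 10 once SU_5402 was left out. VEGFR and PDGFR inhibitors, 13 compounds, had a median of 0.28 with 0 of 23 called (11 at an unadjusted p under 0.05, and 0 in DESeq2), where 4.22% of all genes were called, and 2 called higher without NVP_ACC789.

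Across 218 compound wells the mitosis genes varied together, though not all of them. Over the 27 genes averaging at least 10 CPM, the 351 pairs had a median Pearson r of 0.409 (range -0.155 to 0.840) in log2(CPM + 1) centred on each plate. The wells share plate libraries and counting noise, and these values are descriptions. Top2a followed the mean of the other genes most closely (r = 0.859), then Plk1 (0.846), Cenpa (0.823), Fam64a (0.794) and Ube2c (0.784). Bub3 stood apart, with r = 0.0756 at a mean of 154 CPM. Birc5 had 0.408 and Cdk1 0.485. On plates 1, 2 and 3 taken singly, Top2a had 0.834, 0.897 and 0.900 and Bub3 0.125, 0.00330 and 0.0416. Ube2c lay above Top2a on plates 2 and 3 (0.902 and 0.925), and Cenpa (0.910) and Plk1 (0.909) did so on plate 3. The mean of the mitosis genes had an r of 0.00242 with the log10 total of the well.

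Among 7281 other genes averaging at least 10 CPM, those most like the mean of the mitosis genes over the same wells were Rrm1 (r = 0.838), 2700094K13Rik (0.787), Tk1 (0.783), Knstrn (0.781), Cenpw (0.772), Cdca3 (0.768), Nmral1 (0.768), Ska2 (0.753), Mcm7 (0.752) and Lsm2 (0.736). Rrm1 and Tk1 make DNA precursors, Mcm7 belongs to the replicative helicase, and Knstrn, Cenpw and Ska2 are spindle or kinetochore proteins. Listed replication genes had a median r of 0.510 and other mitosis genes 0.511, against -0.0178 over all genes. Foxm1 had an r of 0.585 and Ccnd1 0.316, and Cdkn1a had -0.390.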

How the data were processed

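The deposited table holds whole-number counts per gene and well, made by the authors with STAR on mm10, per the submitters' processing notes. Neither the labels nor the headers name the counting tool, its annotation or strand setting, or say whether molecular identifiers were used. Of 274 columns, 258 were given to a plate through the deposited barcode lists, 16 were not used, and 4 that repeat another column were counted once, leaving 254 wells.

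Counts were tested with edgeR 4.0.16 in R 4.3.3 (TMM, filterByExpr with a minimum count of 10, quasi-likelihood test, Benjamini-Hochberg over all genes tested, adjusted p under 0.05). The media wells were 1 fit of 30 wells. Each compound was 1 indicator against all other screening wells of its plate. Each target class was an indicator with plate as covariate, so plates were never compared. Wells were the units of a class test, so a compound with 2 wells counted as 2. Alternatives were DESeq2 1.42.0, its size factors, other filters, other references and left-out wells or compounds. CPM uses the total of the well. Intervals on sums are 95% exact Poisson intervals and cover counting error only, since reads may not be independent molecules. Within the fits, screening wells held between 45416 and 1206219 counts.

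Tested on simulated counts, 2-fold changes were recovered for 44.79% of genes between bC8FAE and bCFAE, 32.99% in a lone well (BMS_3) and 94.79% in the PLK4 class, and 4-fold changes for 95.96%, 92.93% and 100% in the same 3 comparisons. Each simulation gave every gene the same dispersion (the spread between wells beyond counting noise), so genes that vary more would be recovered less often. Recovery of the mitosis genes was not measured separately. Positions of genes are those of GENCODE vM21 and promoter sequences of RefSeq, both for this build. Members, gene lists and target classes were chosen with earlier results of these data known, and the classes come from general knowledge of each compound. Within a media comparison or class, the genes named are those called, by size of log2 fold change. The compounds named are those with the most genes called in each direction, up to 10 with ties kept, and the genes most like the members are the 10 with the highest correlation at a mean of at least 10 CPM. Endothelial, muscle and neural marker lists had medians between 14.5 and 151 CPM and were not read further.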

Additional observations from a re-analysis of the deposited data

Results flagged for a closer look

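Within 86 groups of 4 to 10 wells, 10 had a highest or lowest value far from the rest, and chance flags about 1 group in 20. In the media, Cenpa had 170.5 CPM in the second MEF well, against 108 to 118 CPM in the other 3. The summed level of the mitosis genes was 1838 CPM in the third bCLFAE well, against 1657 to 1679 CPM in the others, and Top2a had 116.7 CPM in the second bCSFAE well, against 80.6 to 82.4 CPM.

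Within target classes the log2 ratio of the summed level to the plate median stood apart for 7 compounds. LDC4297 had -1.89 among the CDK1/2/7/9 inhibitors, where the others had -0.24 to 0.47. Lck_Inhibitor had -0.95 among the SRC/ABL inhibitors (others -0.20 to 0.21), and MRT67307 had -0.69 among the IKK/TBK1 inhibitors (others -0.07 to 0.15). Centrinone had -0.73 among the PLK4 wells, the others lying lower at -1.18 to -1.14. Tepotinib had -0.48 among the MET inhibitors (others -0.04 to 0.11) and TAK_715 -0.48 among the p38 inhibitors (others 0.04 to 0.29). R788 had 0.36 among the BTK/SYK inhibitors (others 0.00 to 0.10). Each of these is a single well, and no test was made.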

How the results depend on the processing

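No result changed direction under any alternative run. With other scalings of the wells (DESeq2's size factors), every count stayed within 1.5 times its value. DESeq2 itself called 0 genes for bC6FAE[2] against bCFAE, as did no count filter, and gave no adjusted p for Ccna2 in the PLK4 class. Without the wells MEF 3 and bC8FAE 4, bC8FAE against MEF had 8 genes called, bCLFAE against bCFAE 2 and bCSFAE against bCFAE 1. With a minimum count of 3, compounds with a gene called higher were 2, CFI_400945 had 1 gene called, MCB_613 had 5, and Avitinib, BIBF_1120 and CCT245737 had 0. With wells of at least 50% of the plate median total, CFI_400945 had 1 and Trametinib 2. With cell cycle kinase inhibitors left out of the reference, APTO_253 had 8 genes called, Trametinib 8, CFI_400945 5, BEZ235 7, Rigosertib 12, and BIBF_1120 and CCT245737 0. Scaled by TMM the basal sum was 1871 CPM. The causes were not tested.

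Leaving out 1 well at a time, the genes called ranged from 0 to 1 for basal against MEF, 1 to 3 for bCFAE against basal, 3 to 7 for bC8FAE against MEF, 1 to 3 for bC8FAE against bCFAE, 0 to 1 for bC6FAE[2] against bCFAE, 0 to 1 for bC6FAE[10] against bCFAE, 0 to 2 for bCLFAE against bCFAE, 0 to 1 for bCSFAE against bCFAE and 0 to 0 for CFI_400945. Leaving out 1 compound at a time, they ranged from 0 to 1 for CDK1/2/7/9, 0 to 10 for FGFR, 0 to 1 for LIMK, 0 to 2 for VEGFR/PDGFR, 0 to 2 for MEK and 0 to 9 for PLK4. Of 579 values of single named genes under an alternative, 75 lost their call and the others kept it. The media wells share numbers between groups in the column names only, and nothing says that a number ties wells together. Deviations of same-numbered wells from their group means correlated at -0.144 to 0.0593, over 0.1 in 0 pairs, and in no comparison did every well correlate best with its own number. With the well number as a replicate block, chosen after seeing the data, bCFAE against basal had 4 genes called, bC8FAE against MEF 5, bC8FAE against bCFAE 2, bC6FAE[2] and bCLFAE against bCFAE 1 each, and the others 0. On plate 1, 11 of 40 genes passed the filter, which limited what could be called. The part of well depth in this was not tested.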

Other observations

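Levels of some mitosis genes differed between the plates, which were processed as separate libraries and were not compared by any test. Cdk1 had a median of 12.5, 29.7 and 61.3 CPM over the screening wells of plates 1, 2 and 3, and Prc1, the central spindle protein, had 10.4, 20.7 and 31.2 CPM. Aurkb had medians of 14.9, 27.6 and 30.6 CPM. Bub3 had 156, 153 and 159 CPM on the same plates, and Pttg1 56.8, 65.8 and 59.0 CPM.

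Some compounds had low sums and no mitosis gene called. Lck_Inhibitor stood at 703 CPM and PF_04979064, which inhibits PI3K and mTOR, at 718 CPM, against a plate median of 1353. Over all 3441 genes tested on plate 1, PF_04979064 had 374 called and Lck_Inhibitor 6. KX2_391, described as acting on SRC and tubulin, stood at 789 CPM and BAY1217389, an inhibitor of the checkpoint kinase TTK, at 813 CPM on the same plate. On plate 2 Bemcentinib, an AXL inhibitor, stood at 950 CPM, against a plate median of 1595. Each was 1 well.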
